A study of Mus musculus with 2 samples.

Results

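In mouse embryonic stem cells, 65930 called regions of tagged wild-type H2A.Z on 17 autosomes each paired with 1 region of the K3R3 mutant. In 2187 of these pairs (3.32%) the wild-type region was at least 2 times as wide. The histone variant H2A.Z takes the place of H2A in nucleosomes. Chromatin remodellers load it chiefly beside active and poised promoters and at enhancers. A nucleosome row at a promoter is interrupted by a stretch with few nucleosomes, so H2A.Z is often found on both flanks of it. Ubiquitin attached to lysines of the C-terminal tail is known to mark H2A.Z at silent developmental promoters. In K3R3, 3 lysines of that tail are replaced by arginines, which cannot carry it.

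Each group was a single chromatin immunoprecipitation (ChIP-seq) library. One library came from cells expressing wild-type H2A.Z fused to YFP (H2AZ_WT) and the other from cells expressing the K3R3 mutant fused to YFP (H2AZ_K3R3). Both lines were KH2 embryonic stem cells infected with a lentivirus whose CMV promoter answers to doxycycline, given at 1 µg/ml. Both were sorted for YFP and also expressed short hairpins aimed at the 3′ UTR of the cells' own H2A.Z mRNA. The knockdown of the untagged histone was thus common to both groups, and its level is not part of these data. The strain listed for both is V6.5 (129SvJaexC57BL/6). The antibody was Ab290, raised against GFP, so the tagged protein and not the endogenous one was immunoprecipitated.

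The members were chosen by region widths, which are therefore given as a description. A pair was formed by a wild-type and a K3R3 region of the looser lists (threshold 1e-09) that overlapped each other by at least 1 bp and overlapped no other region. Autosomes other than 6 and 8 held 65930 such pairs, of 77087 in all. The wild-type region was at least 2 times as wide in 2187 of them (3.32%, 95% Wilson interval 3.18 to 3.46). Those 17 autosomes held 82835 wild-type and 99976 K3R3 regions in all, 2187 of each being members. As each group is 1 library, differences have no replicate check and are given without p-values. The files do not state read depth, and intervals cover counting error only. Region lists carry no height, so a narrower region cannot be told apart from a lower signal of the same shape.

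Pairs in which the mutant was the wider were more common. K3R3 was at least 2 times as wide in 5473 of the same 65930 pairs (8.3%, 8.09 to 8.51), 2.5 times as many, which are called mirrored pairs here. The wild type was wider by any amount in 20816 pairs, K3R3 in 35844, and 9270 had equal widths. The members thus lay at the less filled end of a distribution that leaned towards K3R3. Chromosomes 6 and 8, left out of the rule, leaned the other way. There the wild type was at least 2 times as wide in 9.74% (8.93 to 10.6) of 4869 and 11.4% (10.6 to 12.3) of 5060 pairs, and K3R3 in 2.12% and 1.9%. On X both directions had similar shares, 7.41% (6.07 to 9.01) and 8.79% (7.34 to 10.5) of 1228 pairs.

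**Figure D1:**
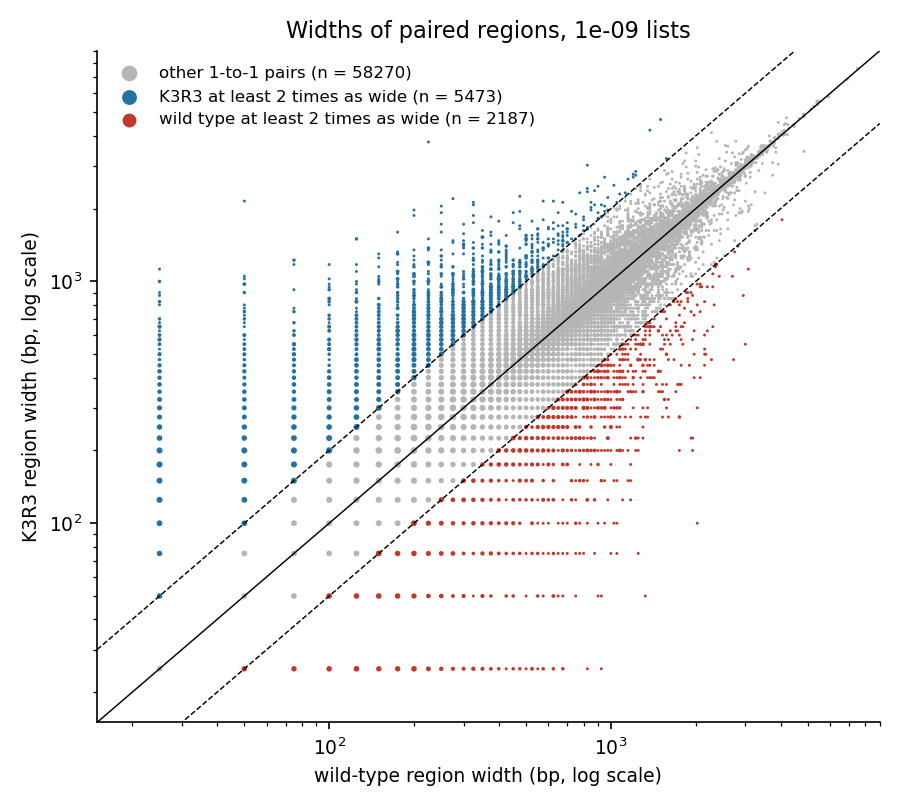
Width of the wild-type region (x axis, bp, log scale) against width of the K3R3 region (y axis, bp, log scale) for the 65930 pairs, with larger points where several pairs share the same widths. The solid line marks equal widths and the dashed lines a ratio of 2. The 2187 members (red) run from wild-type widths of 50 bp up to 4050 bp, and the 5473 pairs with the wider K3R3 region (blue) fill the other side more densely.

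In absolute terms most members were small. The wild-type region had a median width of 325 bp (quartiles 175 and 700, range 50 to 4050), and the K3R3 region one of 100 bp (quartiles 50 and 250, range 25 to 1800). Over all pairs the medians were 375 and 400 bp. The median ratio of members was 2.75, the upper quartile was 4.00 and the highest was 37.0. A median of 200 bp of the wild-type region (quartiles 100 and 475) was not called in K3R3. The K3R3 region of a member was often shorter than the 200 to 400 bp fragments that had been sequenced. K3R3 regions of 25 or 50 bp made up 705 members (32.2%), and those of 75 or 100 bp another 475 (21.7%). All coordinates lay on a 25 bp grid, so a single grid step can carry such pairs across the ratio of 2. Of the mirrored pairs, 31.7% and 25.3% had a wild-type region of these widths.

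The members spanned every width class. Wild-type regions under 200 bp gave 641 members, those from 200 to under 400 bp 559, those from 400 to under 1000 bp 698, and those of 1000 bp or more 289. In the widest class the median wild-type width was 1325 bp against 450 bp for K3R3, with 900 bp not called in the mutant. Pairs were also grouped by the wider of their regions. Both directions were most frequent under 200 bp, where 10.6% (9.84 to 11.4) of 6052 pairs were members and 21.3% (20.3 to 22.3) were mirrored pairs. In the widest class 2.77% (2.48 to 3.11) of 10417 pairs were members and 4.18% (3.81 to 4.58) were mirrored pairs. In the class from 200 to under 400 bp the shares were 2.35% (2.16 to 2.55) and 8.94% (8.58 to 9.30) of 23836. From 400 to under 1000 bp they were 2.72% (2.53 to 2.93) and 6.32% (6.03 to 6.63) of 25625. K3R3 had the higher share in each class, and the gap was smallest among the wide regions.

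The threshold of 2 cut through a continuous range. Of the members, 837 had a ratio under 2.5, of which 398 had exactly 2, and 2000 further pairs fell between 1.5 and 2. Among the widest pairs just inside was a wild-type region of 2350 bp on chromosome 11 (69778251 to 69780600), with a K3R3 region of 1175 bp. Another was a region of 1700 bp on chromosome 5 (65883026 to 65884725), with 850 bp in K3R3. Those just outside were 2525 against 1275 bp on chromosome 5 (23869376 to 23871900), 1675 against 850 bp on chromosome 12 (86202101 to 86203775), and 1325 against 675 bp on chromosome 9 (24955426 to 24956750).

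With a shift of 50 bp allowed, K3R3 fell short on 1 side and kept the other edge in most members. A side was called in place when the K3R3 edge lay at most 50 bp inside the wild-type edge. By that measure 1422 members (65.0%, 63.0 to 67.0) lost 1 side, 453 (20.7%) lost both, and 312 lost neither side by more than 50 bp, of which 294 were narrower than 200 bp. With no inward shift allowed, 31.6% lost 1 side only. A K3R3 edge beyond the wild-type edge counted as in place at any distance. The share of 65.0% was close to the 64.4% (63.1 to 65.7) of mirrored pairs and the 65.8% (63.7 to 67.9) of pairs with a ratio from 1.5 to under 2. The left side (lower coordinate) was lost in 684 and the right in 738, so the left took 48.1% (45.5 to 50.7). The retained edge was at exactly the same position in 419 of the 1422, and in 177 the K3R3 region reached beyond it. The lost side had a median length of 200 bp (quartiles 100 and 450), and in 71 members it was at least 1000 bp long. Left and right here are map directions, since no region was assigned to a gene and its strand.

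The measured division of the lost bases between the sides varied with width, and the measure depends on the size of the loss. In members of 1000 bp or more, a median of 96.6% of the lost bases lay on a single side, and in 207 of 289 (71.6%) at least 90% did. From 400 to under 1000 bp the median was 92.3% and at least 90% lay on one side in 60.6% of members. From 200 to under 400 bp the median was 72.7% and that share 20.8%. Members under 200 bp broke this order, with a median of 75% and a share of 41.5%. All 266 members behind that share had the whole loss on 1 side, and on a grid of 25 bp the measure takes few values in so narrow a region. At the median loss of 175 bp in members from 200 to under 400 bp, a single step of 25 bp on the other side fails the 90% limit. At the median loss of 900 bp in the widest class it does not. The whole loss lay on 1 side in 107 of 559 members from 200 to under 400 bp. From 400 to under 1000 bp it did so in 224 of 698, and in the widest class in 95 of 289. Counted by the 50 bp measure, 70.3% (66.4 to 73.9) of members from 200 to under 400 bp and 64.0% (58.3 to 69.3) of those of 1000 bp or more lost 1 side. Both sides were lost in 26.5% and 36.0%. Mirrored pairs had almost the same shape in the widest class, with a median of 96.0% and a share of 71.0%. In the class from 200 to under 400 bp, however, at least 90% of the loss was on a single side in 9.72% of mirrored pairs. Pairs with a ratio from 1.5 to under 2 showed 70.7% in the widest class. The wide members therefore resembled both of these sets in this respect.

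**Figure D2:**
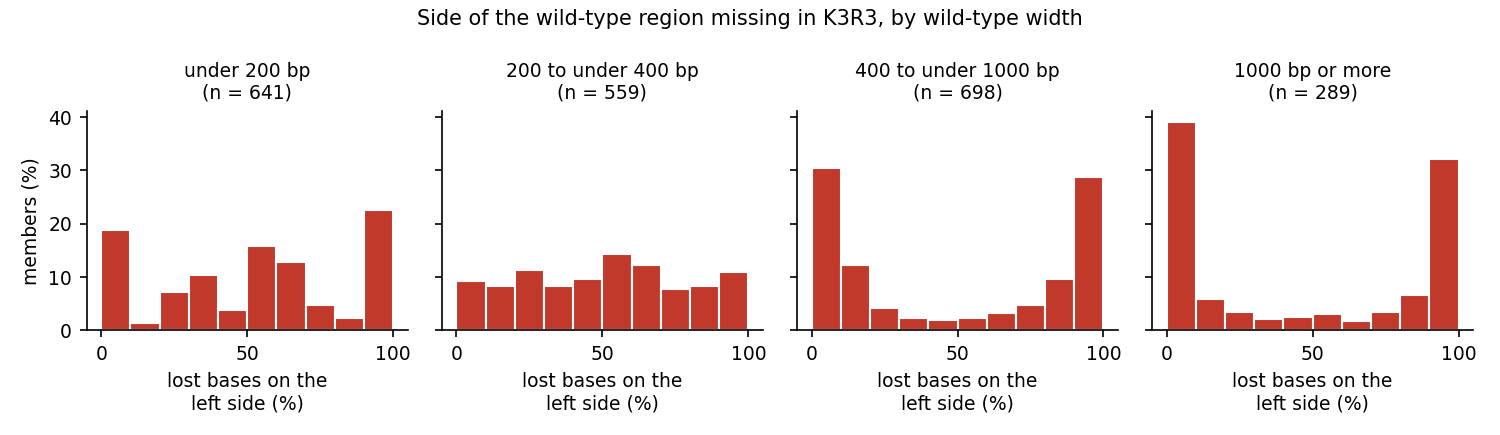
Share of the lost bases that lay on the left of the K3R3 region (x axis, %, in steps of 10) in members of each width class, as a share of the members in that class (y axis, %). In the widest class 39.1% of members fall in the lowest bin and 32.2% in the highest. Members from 200 to under 400 bp are spread between 7.69% and 14.3% per bin.

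The widest members show this form. The widest wild-type region was 4050 bp long, on chromosome 17 from 56890526 to 56894575. K3R3 covered its left part from 56890576 to 56892375 and lacked the 2200 bp on the right. In the stricter lists (threshold 1e-12) the wild type had separate regions of 1850 and 1900 bp there. The stricter K3R3 list had a region of 825 bp over the left part and, at the far right end, another of 375 bp (56894126 to 56894500). That second piece was absent from the looser K3R3 list. The lists of a library are thus not nested, and the reason is not known.

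A wild-type region of 3250 bp on chromosome 5 (129105026 to 129108275) was matched in K3R3 by 1625 bp (129106726 to 129108350), a ratio of exactly 2. Its left 1700 bp was missing in both K3R3 lists. On chromosome 2 a region of 3075 bp (153352426 to 153355500) kept 1125 bp at its right end in K3R3, and 1925 bp on the left was lost. The stricter widths were 2900 and 1050 bp, a ratio of 2.76. On chromosome 4 a region of 2950 bp (125239526 to 125242475) kept 875 bp with an identical right edge and lost 2075 bp. The stricter widths there were 2925 and 875 bp, a ratio of 3.34. The members on chromosomes 2 and 4 were thus truncated alike at both thresholds.

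The region on chromosome 19 was of another kind. The wild-type region of 3000 bp (9062426 to 9065425) had a K3R3 partner of 550 bp at its right end, and its loss of 2450 bp was the largest of any member. The stricter K3R3 list, however, held a region of 1550 bp (9062951 to 9064500) inside the stretch called lost. With all stricter regions summed the ratio was 1.29. K3R3 was therefore present over most of this place at the stricter threshold.

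Such cases were few. The part lost in K3R3 amounted to 734 kb over all members, and the stricter K3R3 list covered 2.26% of it, touching 59 members. Of these, 38 were among the 289 members of 1000 bp or more (13.1%), where 4.72% of the lost bases were covered. With both K3R3 lists joined over the wild-type region, 2160 of 2187 members kept a ratio of at least 2, and of the 27 that did not, 18 were at least 1000 bp wide.

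The largest ratios among members with a K3R3 region of at least 200 bp came from regions of 1750 to 2025 bp in the wild type. On chromosome 11 a region of 1950 bp (95436201 to 95438150) had a K3R3 partner of 200 bp, a ratio of 9.75. On chromosome 7 a region of 1750 bp (19638576 to 19640325) also had a partner of 200 bp, at its left end, a ratio of 8.75. In both, the stricter wild-type list was in 2 pieces and the K3R3 partner lay over the shorter piece. The stricter K3R3 list added a region of 175 bp and one of 475 bp, respectively, under the longer piece.

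A region of 1950 bp on chromosome 17 (25852876 to 25854825) had 225 bp in K3R3, a ratio of 8.67, and no stricter K3R3 region at all, while the stricter wild-type region was 1125 bp. On chromosome 11, a region of 1925 bp (69659626 to 69661550) had a ratio of 8.56, and its stricter K3R3 region was 50 bp. The last, 2025 bp on chromosome 7 (148127326 to 148129350), kept 300 bp at its left end, a ratio of 6.75, with a stricter K3R3 region of 275 bp. In 3 of these 5 members the K3R3 region kept an edge of the wild-type region within 50 bp, and in the first on chromosome 11 and the one on chromosome 17 it lay inside it, 250 and 100 bp from the right edge.

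Loss was largest, among members with a ratio of at least 2 in both pairs of lists, on chromosome 4. There 2725 bp (118744876 to 118747600) faced 475 bp in K3R3 (ratio 5.74), or 1525 against 350 bp in the stricter lists (ratio 4.36). Unlike most wide members it lost both ends, 700 bp on the left and 1550 bp on the right. The regions on chromosomes 4 and 2 described above came next. On chromosome 5 a region of 2750 bp (36081751 to 36084500) lost 1725 bp on the left, while K3R3 extended 300 bp beyond the right edge. On chromosome 14 a region of 2700 bp (56490476 to 56493175) lost 325 bp on the left and 1325 bp on the right, with ratios of 2.57 and 2.41.

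**Figure D3:**
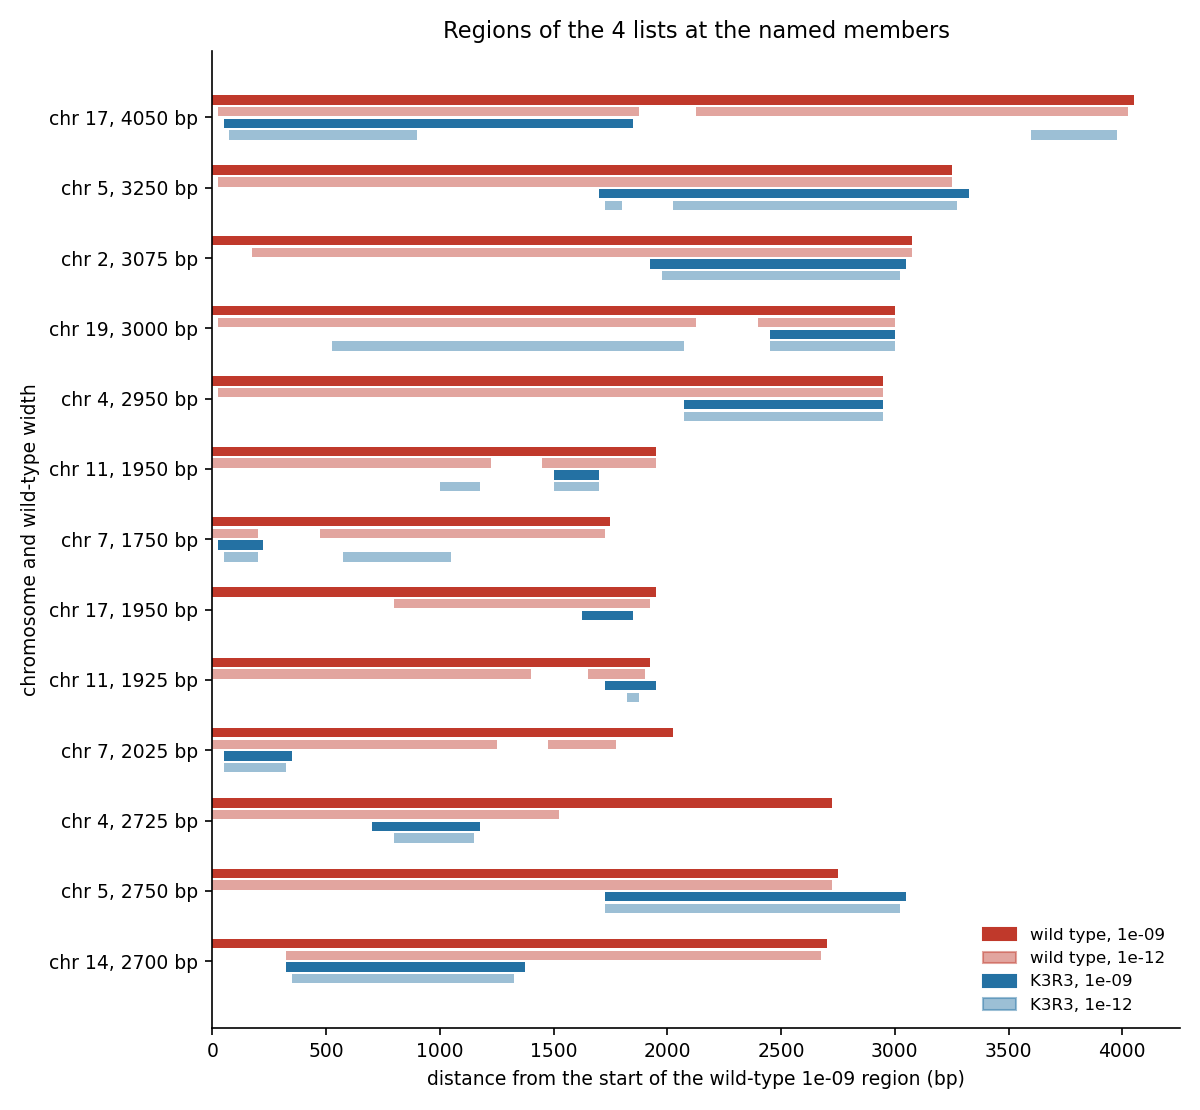
Regions of the 4 lists at the 13 named members, drawn from the start of the looser wild-type region (x axis, distance in bp), with the chromosome and the wild-type width on the y axis. Dark bars are the looser lists and pale bars the stricter ones, red for the wild type and blue for K3R3. On chromosome 19 the pale blue bar of 1550 bp lies where the dark blue bar is missing, whereas on chromosome 4 (2950 bp) both blue bars end at the same place.

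In the stricter lists the wild-type part of a member was mostly still called and the K3R3 part often was not. Of the 2187 members, 1063 (48.6%) overlapped stricter regions of both libraries, 946 (43.3%, 41.2 to 45.3) a stricter region of the wild type only, 8 one of K3R3 only, and 170 (7.77%) neither. Over all pairs 90.1% had both and 3.06% had the wild type only. The mirrored pairs gave the mirror image, with K3R3 alone in 43.2%. Wild type alone was the outcome for 71.6% of members under 200 bp and 67.1% of those from 200 to under 400 bp. It fell to 14.5% from 400 to under 1000 bp and to 3.81% (2.14 to 6.69) of those of 1000 bp or more. Over all pairs of these wild-type widths the shares were 9.69%, 2.88%, 0.787% and 0.179%. Wild type alone was thus most frequent in narrow members, whose K3R3 regions had been narrow by choice. In each width class, however, its share in members was above that of all pairs.

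Where the stricter lists again held a simple pair, the ratio was mostly retained. A single region of each library was found at 863 members, of which 689 (79.8%, 77.0 to 82.4) had a ratio of at least 2. In 143 it was between 1 and 2, in 20 the widths were equal, and in 11 K3R3 was wider. The median ratio was 2.64. Mirrored pairs retained their own ratio about as often, in 1938 of 2391 such stricter pairs (81.1%, 79.4 to 82.6). Over all pairs the wild type was at least 2 times as wide in 2015 of 57447 (3.51%). Members without a single stricter region of each library are left out of the 79.8%, and over all 2187 members the share was 31.5%. For members of 1000 bp or more, 150 of 190 had a ratio of at least 2 (78.9%, 72.6 to 84.1), and none had a wider K3R3 region. Both thresholds come from the same reads, so this shows how the calls behave and is no repeat of the experiment. Applied to the stricter lists alone, the rule picked 2629 of 64793 pairs (4.06%), against 8.8% for K3R3 at least 2 times as wide. Of the 2187 looser members 33.3% overlapped one of these, and of the 2629 stricter ones 27.9% overlapped a looser member. In the stricter lists the shares on chromosomes 6, 8 and X were 11.4%, 12.1% and 9.49% for the wild type and 1.92%, 2.18% and 6.74% for K3R3.

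Stricter wild-type coverage dipped just beyond the K3R3 edge in part of the wide members. In the 185 members of at least 1000 bp that lost 1 side, the stricter wild-type list covered 97.8% at 50 to 75 bp inside the K3R3 edge. It covered 62.2% at 175 bp beyond the edge and rose again to 76.8% at 350 bp. The looser wild-type list covered all of them up to 500 bp beyond the edge, by choice of the members. In 119 of the 1422 members that lost 1 side the stricter wild-type list was in several pieces, with a median gap of 250 bp. The K3R3 edge lay within 100 bp of such a gap in 110 of them (92.4%, 86.2 to 96.0) and inside it in 60. The midpoint of the lost part lay as close to a gap in 88 (73.9%), in wild-type regions with a median width of 875 bp. The mirrored pairs gave 204 of 224 (91.1%, 86.6 to 94.1) for the edge of the wild-type region and gaps in the stricter K3R3 list.

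**Figure D4:**
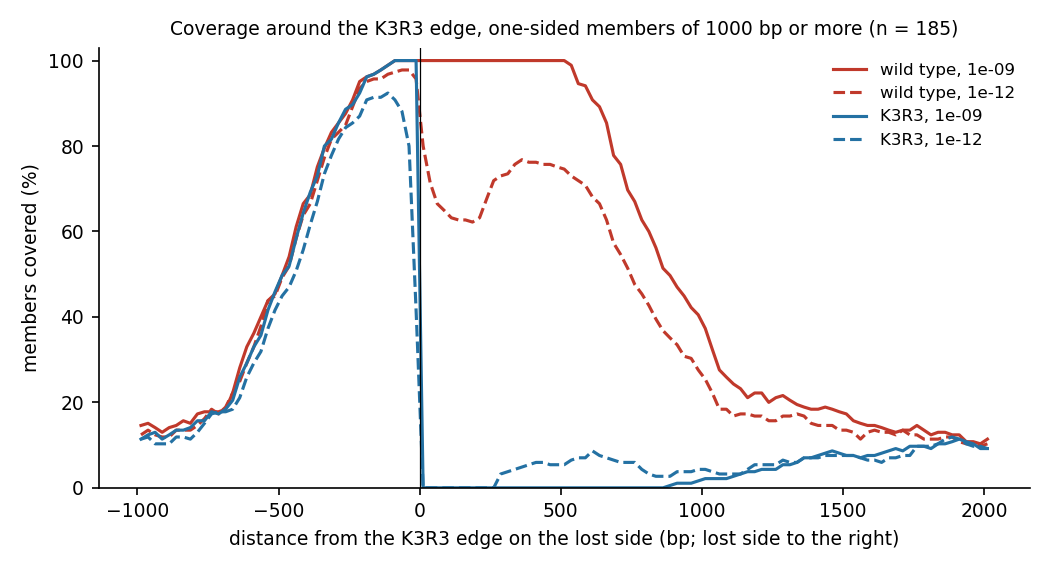
Share of 185 members covered by a region of each list (y axis, %) against the distance from the K3R3 edge on the lost side (x axis, bp, with the lost side at positive values). Solid lines are the looser lists and dashed lines the stricter ones. The stricter wild-type line dips to 62.2% just past the edge and recovers to 76.8%, while the stricter K3R3 line stays below 10% up to 1000 bp beyond it.

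Members were found on all 17 autosomes at similar rates. They made up between 2.69% (2.10 to 3.44) of the pairs of chromosome 18 and 3.83% (3.35 to 4.37) of those of chromosome 4. In 218 windows of 10 Mb with at least 50 pairs, the share had a median of 3.14% and ran from 0 in 3 windows to 10.8%. That highest value rested on 7 of 65 pairs on chromosome 12 between 90 and 100 Mb (5.32 to 20.6). Cut into 5 equal parts from the lower to the higher coordinates, the chromosomes gave shares of 3.25%, 3.12%, 3.39%, 3.35% and 3.40%, with overlapping intervals. No stretch of the chromosomes stood out as their main location. The members were not bunched to a large degree either. Another member lay within 10 kb of 174 (7.96%, 6.89 to 9.17), compared with 5.33% (5.16 to 5.5) of all pairs and 3.86% (3.38 to 4.40) of mirrored pairs. At 100 kb the shares were 39.0%, 34.9% and 31.2%.

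The surroundings of members differed in balance more than in density. Within 10 kb on either side there were on average 2.29 further wild-type and 2.39 further K3R3 regions, against 2.41 and 2.81 around all pairs. A wild-type region with no K3R3 partner lay within 10 kb of 32.5% of members (30.5 to 34.5), 27.6% of all pairs (27.3 to 28.0) and 22.7% of mirrored pairs (21.6 to 23.8). For K3R3 regions with no wild-type partner the order was reversed, with 36.4% (34.4 to 38.4), 47.6% (47.2 to 48.0) and 55.5% (54.2 to 56.8). With a wild-type region of 1000 bp or more, the first share was 38.4% (33.0 to 44.1) for members and 34.1% (33.2 to 35.1) for all pairs. The second was 39.8% (34.3 to 45.5) and 46.2% (45.2 to 47.2). At that width the intervals of members and all pairs overlapped in both.

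The pair nearest to a member was wider in the wild type more often than the pair nearest to any pair, although K3R3 was still the wider in more of them. The nearest other pair was wider in the wild type for 890 of 2187 members (40.7%, 38.7 to 42.8), against 30.8% (30.5 to 31.2) over all pairs and 22.7% (21.6 to 23.8) for mirrored pairs. K3R3 was the wider in 43.7% of the members' neighbours, 55.0% over all pairs and 64.0% for mirrored pairs. The wild-type share was above that of all pairs on 16 of the 17 chromosomes. Chromosome 13 was the exception, with 22.0% of 91 members against 27.7%. Where the nearest pair was no member itself, 37.2% (35.2 to 39.3) of 2066 were wider in the wild type and 46.3% in K3R3, and between pairs that were both no members 28.3% (27.9 to 28.6) were wider in the wild type. The rule had set these 2066 neighbours apart by their own width ratio, and the neighbours of the comparison likewise. Both shares thus describe neighbours that are not members, and they are not independent of the rule. Members under 200 bp showed little of this, with 32.0% (28.5 to 35.7), and members of 200 bp or more had 44.3% (41.8 to 46.8). The 30.8% over all pairs takes in every width and was itself higher for wide regions. With a wild-type region of 1000 bp or more it was 34.8%, against 47.4% for members of that width.

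Taken over members of all widths, the excess over all pairs was largest at short range, and only there did the wild type outnumber K3R3. Members of 200 bp or more had more neighbours wider in the wild type over all distances together, 44.3% against 41.0% wider in K3R3. Under 200 bp these shares were 32.0% and 50.2%. At a gap of at most 1 kb the neighbour was wider in the wild type for 50.4% of 516 members (46.1 to 54.7), and in K3R3 for 34.9%. Over all pairs at that range the wild type was the wider in 34.9% too. Between 1 and 10 kb the wild-type share was 39.8% for members and 28.9% for all pairs, and between 10 and 100 kb 35.2% (31.5 to 39.2) and 30.8%. At these ranges K3R3 was the wider next to 45.2% and 48.2% of members. Beyond 100 kb the 74 members gave 28.4% (19.4 to 39.5) against 30.7%, a difference within the counting interval. For members that lost 1 side, the next pair on the lost side was wider in the wild type in 38.3% (35.8 to 40.9) and on the retained side in 41.1% (38.6 to 43.7), with overlapping intervals. Neighbouring regions share a library, a local background and, at short range, part of their fragments. What part these play was not tested.

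**Figure D5:**
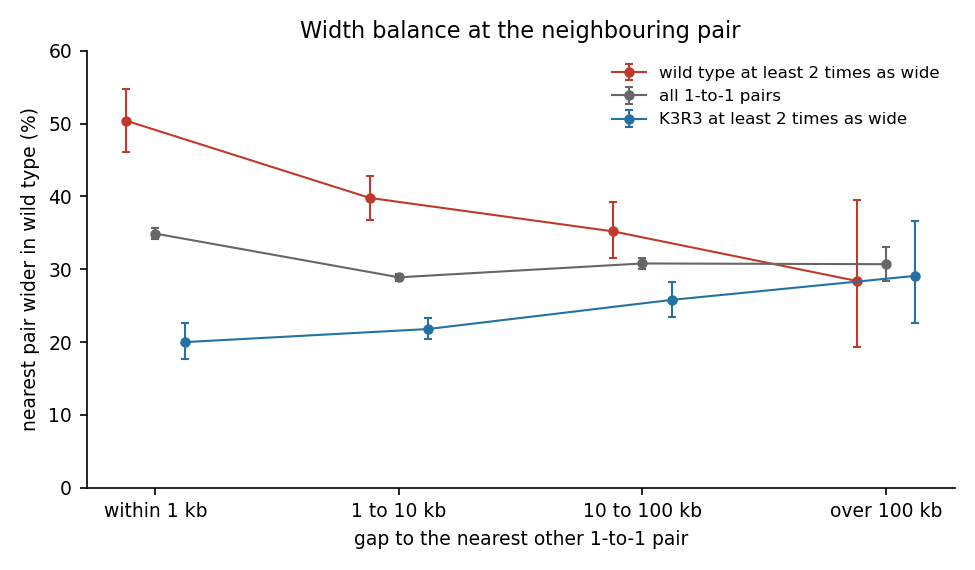
Share of pairs whose nearest other pair was wider in the wild type (y axis, %) by the gap to that pair (x axis), with 95% Wilson intervals as error bars. Members (red) start at 50.4% within 1 kb and reach 28.4% over 100 kb, and mirrored pairs (blue) start at 20.0% and reach 29.1%. Up to 100 kb they lie above and below all pairs (grey), and beyond it all 3 intervals overlap.

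The nearest called region beyond the lost end was not particularly close. Measured from the wild-type edge, the median gap to the next region of either library was 5437.5 bp on the lost side (quartiles 1375 and 18918.8) and 4962.5 bp on the retained side. A region of either library lay within 1000 bp of 20.0% (18.0 to 22.2) of lost ends and 23.0% (20.8 to 25.2) of retained ends. For K3R3 regions alone, 16.0% (14.2 to 18.0) of lost ends had one within 1000 bp, against 18.8% (18.6 to 19.0) of the ends of all pairs. In most of the 1422 members that lost 1 side, then, no further K3R3 region was called within 1000 bp of the lost end. Members that lost both sides or neither were not measured here.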

How the data were processed

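For each library the authors deposited 2 region lists, with start and end positions (another kind of value than counts or scores) and no height or p-value. Per the file headers the thresholds were 1e-09 and 1e-12. The genome build was mm9 and the tools listed are Bowtie 0.12.3 and bedtools, per the submitters' processing notes. No source used here names the region caller, its filters or its control. Neighbouring regions were at least 225 bp apart in every list.

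Pairs, sides, gaps and coverage were computed with Python 3.11.15, numpy 2.4.6, pandas 2.3.3 and scipy 1.17.1, and plotted with matplotlib 3.10.9. Coordinates are printed 1-based in mm9. Overlaps were checked against bedtools 2.31.1, and on simulated data made from 82835 regions all 10903 planted pairs were found with the right side. Changes were planted only in regions of at least 400 bp, so the side calls of narrower members were not checked this way. Shares have 95% Wilson intervals. The members and lists were chosen with earlier results of these data known. Named regions are the 5 widest members, the 5 with the largest ratio among those with K3R3 of at least 200 bp, the 5 with the largest loss and a ratio of at least 2 in both thresholds, and the 3 widest pairs nearest to a ratio of 2 on either side. Width classes, neighbouring pairs and the coverage around the K3R3 edge were added after the widths were seen. The gene and promoter tables at hand are of GRCm38.p6, so regions were not placed in genes and no sequence was read.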

Additional observations from a re-analysis of the deposited data

How the results depend on the processing

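K3R3 at least 2 times as wide was the more frequent direction under each alternative run. No paired analysis was possible because there is only 1 library in each group. The value with both K3R3 lists joined, given above, was chosen after seeing the data. Where a value moved, the cause was not tested, apart from shifts that the alternative itself makes. The rule gave 4187 pairs at a ratio of at least 1.5, 1016 at 3, 760 with both regions at least 200 bp, 1035 with equal numbers of regions (widest first, which drops narrow K3R3 regions by construction) and 3331 on all chromosomes. As a share of pairs, in percent for the wild type and then for K3R3, these were 6.35 and 15.2 at 1.5, 1.54 and 3.89 at 3, 1.47 and 2.83 with both at least 200 bp, 1.64 and 8.11 with equal numbers, and 4.32 and 7.50 on all chromosomes. The shares were 4.06 and 8.80 in the stricter lists, 3.56 and 8.54 with the narrower region at least 50% covered, and 4.38 and 10.5 with regions within 500 bp joined. Losing 1 side held for 61.2% of members at a ratio of 3, 71.7% with joined regions and 74.0% with both at least 200 bp. It held for 31.6% when any inward shift of the K3R3 edge counted as loss, and for 53.7% with 100 bp allowed. Median widths (wild type, K3R3, loss, in bp) were 650, 200 and 425 with joined regions and 837.5, 300 and 525 with both at least 200 bp. At a ratio of 3 the first of these was 250 and the second 50, and at 1.5 the second was 175 and the third 175. With all stricter regions summed, 36.6% of members had a stricter ratio of at least 2, against 31.5% from single pairs. Set against all wild-type regions, the highest share of a chromosome was 3.00%. The median gap on the lost side was 7350 bp in the wild-type list and 7437.5 bp in the K3R3 list. Depth is unknown, and its part in the widths was not tested.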

Other observations

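Of 8938 pairs with a wild-type region of at least 1000 bp on the 17 autosomes, 289 were members (3.23%, 95% Wilson interval 2.89 to 3.62). By chromosome the share was lowest on chromosome 2, with 1.80% (17 of 942, 1.13 to 2.87), and highest on chromosome 4, with 5.30% (43 of 811, 3.96 to 7.07). These are the extremes of 17 chromosomes, picked after their values were seen, and were not tested. On the chromosomes outside the rule the same share was 9.13% on chromosome 6 (63 of 690), 13.2% on chromosome 8 (113 of 857) and 3.19% on X (3 of 94, 1.09 to 8.97). On X, 91 of 1228 pairs had a ratio of at least 2, and 3 of these were at least 1000 bp wide.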
